A study of Mus musculus with 11 samples.

Results

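Mitochondrially encoded RNA was read by 32 of the 28350 probe sets of the mouse array, chosen as every probe set that the deposited table places on chromosome M, with or without a gene symbol. By the strand given in that table, 22 lay on the plus strand and 10 on the minus strand. A gene symbol was given for 12 of them and none for 20, and these were identified from the RefSeq list of mitochondrial genes, except 1 that holds no gene. The deposited ends coincide with ends of listed genes for 29 of the 32. The array was hybridised with total RNA from the tibialis anterior (TA), a muscle of the lower hind limb, of 11 male mice on the C57/B10 background. The groups were wild-type C57 (3 mice), mdx without treatment (4 mice) and mdx treated with Pip6e-PMO (4 mice), which had received 12.5 mg/kg once, in saline and into a tail vein, when 12 weeks old. All mice were harvested at 14 weeks. The mdx mouse carries a nonsense mutation in exon 23 of the dystrophin gene Dmd, in the treated mice as well, and Pip6e-PMO is a peptide-linked morpholino oligonucleotide that makes muscle skip that exon and restores some dystrophin. The mice are called C1 to C3, M1 to M4 and T1 to T4 below, and each had its own array, so that the spread is between animals. Each probe set was compared only with itself in other mice.

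The mitochondrial genome is a small circle that is transcribed from both strands into long RNAs. In mouse the plus-strand transcript holds both ribosomal RNAs, most of the tRNAs and all protein-coding genes but ND6, and the minus-strand transcript holds ND6, the remaining tRNAs and long stretches that are antisense to the coding genes and are normally degraded. The tRNAs lie between the other genes, and their excision at both ends releases the ribosomal and messenger RNAs. Skeletal muscle is rich in these transcripts, which encode subunits of the respiratory chain and of the ATP synthase.

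Of the 32 probe sets, 10 covered plus-strand coding genes, 2 the 12S and 16S rRNAs, 10 plus-strand tRNAs, 8 minus-strand tRNAs and 1 ND6. The last, on the minus strand, held no gene and lay opposite ATP8 and ATP6. Several coding probe sets overlap: 1 spans ATP8, ATP6 and COX3, a further one COX3, tRNA-Gly and ND3, and each of tRNA-Gly and ND3 also has its own. Of the 32, 31 passed the signal minimum of 30 in at least 1 group mean and were tested with limma among 14494 probe sets. The exception was the plus-strand tRNA-Thr, whose log2 signals lay between 3.64 and 4.39 in all mice. A difference was called where the p, adjusted by the method of Benjamini and Hochberg, was under 0.05. In these bulk samples, fewer cells of a type and less RNA per cell cannot be told apart.

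The median array signal ranged from 27.5 to 28.6. At the threshold used, 12.0% of all tested probe sets were called between mdx and C57 (7.06% higher and 4.96% lower in mdx), 11.1% between treated and mdx (7.26% higher and 3.88% lower in treated mice), and 24.6% between treated and C57 (15.6% higher and 8.96% lower in treated mice). The medians over all tested probe sets were -0.01, 0.02 and 0.00 on the log2 scale in the order given. The 3 comparisons share their groups pairwise, so each is given with its own values. Mouse T2 stood apart from the other treated mice over the probe sets called between mdx and C57, with values given beside the measure of restoration.

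The minus strand carried the 2 largest differences among the members. ND6, a subunit of complex I of the respiratory chain, is read by a probe set at 13552 to 14070 of chromosome M in the deposited table. Its log2 signal was 4.13, 4.35 and 4.66 in the C57 mice, 9.03, 8.42, 8.60 and 8.86 in the mdx mice, and 3.88, 5.11, 4.89 and 5.02 in the treated mice. All 4 mdx mice stood above all other mice, and the treated and C57 mice overlapped. ND6 was 4.35 ± 0.26 (SE) higher on the log2 scale in mdx than in C57, a 20.4-fold difference with an adjusted p of 2.3e-06, and the treated mice fell by 4.00 ± 0.25 from mdx, with an adjusted p of 4.8e-06. Treated minus C57 was 0.34, with a 95% confidence interval of -0.23 to 0.92 and an adjusted p of 0.35. Without T1 this difference was 0.63, with an adjusted p of 0.0287.

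The probe set opposite ATP8 and ATP6, at 7843 to 8146 on the minus strand, had the same order of groups. Its log2 signal was 4.67, 4.39 and 4.80 in the C57 mice, 9.58, 9.27, 9.28 and 9.41 in the mdx mice, and 4.47, 4.99, 4.91 and 5.36 in the treated mice. Again the mdx mice alone were high. The arrays of the mdx mice also had the lowest maximum signals, at log2 13.63 to 13.66 against 13.81 to 13.91 in C57 and 13.82 to 13.86 in treated mice. The labels give no batch of RNA preparation, labelling or scanning, so the part of such steps in the signals that set the mdx mice apart, here and for tRNA-Met and tRNA-Gly, was not tested. The difference between mdx and C57 was 4.76 ± 0.18 (SE), 27.2-fold, with an adjusted p of 6.2e-08, and the treated mice fell by 4.45 ± 0.17 from mdx, with an adjusted p of 5.5e-08. Treated minus C57 was 0.31, with an interval of -0.08 to 0.70 and an adjusted p of 0.212.

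Both probe sets were near or below the signal minimum outside the untreated mdx mice. ND6 passed the signal minimum only through its mdx mean, and the antisense probe set through its mdx mean and a treated mean of 31.3, so their being tested depended on the group in which they were high. All 3 C57 mice were below the minimum for both, and the folds above therefore depend on how background is scaled. Set against the minimum itself, the mdx mean was at least 14.1-fold higher for ND6 and at least 22.3-fold higher for the antisense probe set. The array annotation lists the ND6 probes as unique and those of the antisense probe set as mixed, which means that some may hybridise elsewhere.

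**Figure D1:**
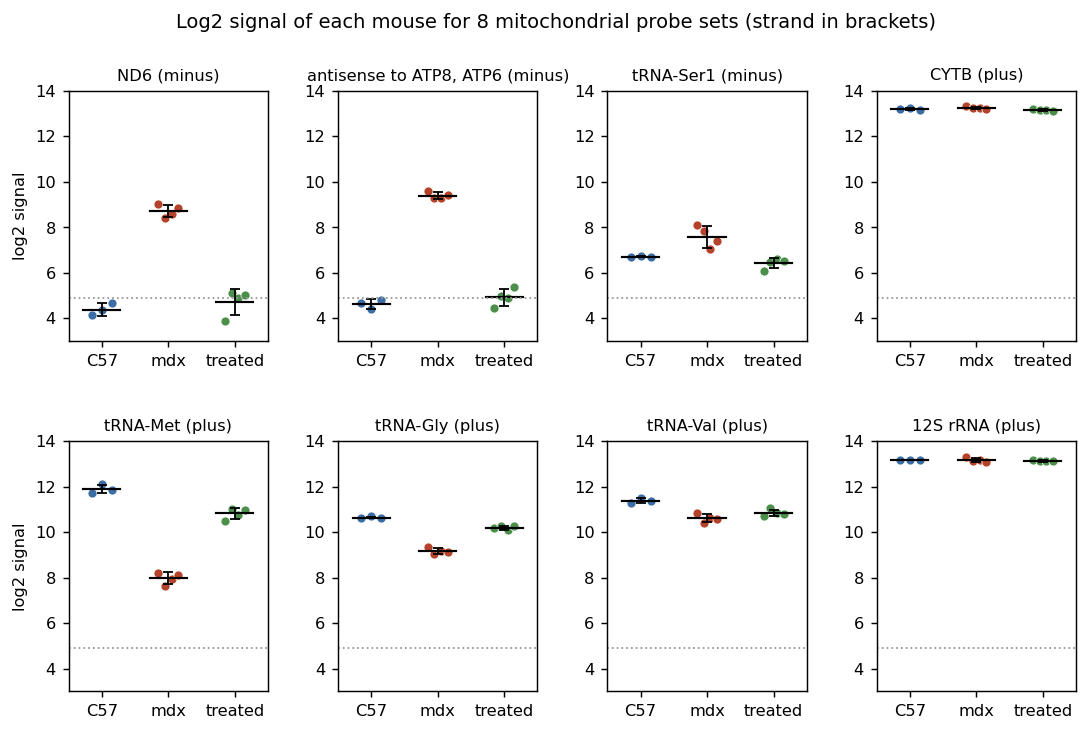
Log2 signal of each mouse for 8 mitochondrial probe sets, with the strand in brackets. Points are mice (3 C57, 4 mdx, 4 treated), the horizontal line is the group mean, the error bar is the SD, and the dotted line is the signal minimum of 30. ND6 and the probe set antisense to ATP8 and ATP6 are high only in mdx, tRNA-Met and tRNA-Gly are low in mdx and intermediate in treated mice, and CYTB and 12S rRNA lie close together in all groups.

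Probe sets opposite the antisense probe set and next to ND6 differed by much less and were not called. The plus-strand probe set of ATP8, ATP6 and COX3, which are subunits of the ATP synthase and of cytochrome c oxidase, covers the same stretch as the antisense probe set and had log2 signals of 12.58 to 12.65 (C57), 12.56 to 12.77 (mdx) and 12.45 to 12.58 (treated). Its difference was 0.02 for mdx minus C57, with a 95% interval of -0.16 to 0.21, and -0.11 for treated minus mdx, with an interval of -0.29 to 0.06. ND5, the plus-strand neighbour whose end overlaps that of ND6, differed by 0.09 (interval -0.10 to 0.28) and -0.18 (interval -0.36 to -0.01, adjusted p = 0.136) in the same order, and its treated mice were all below its mdx mice. tRNA-Glu, which carries glutamate and directly adjoins ND6 on the same strand, differed by 0.37 (interval -0.01 to 0.75, adjusted p = 0.21) and -0.32 (interval -0.67 to 0.03, adjusted p = 0.193).

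Beside 12.0% of all tested probe sets, 1 of the 8 minus-strand tRNAs was called between mdx and C57. This was tRNA-Ser1, a serine tRNA at 6870 to 6938, which the file lists under the symbol LOC100503984. Its log2 signal was 6.70, 6.75 and 6.69 in C57, 8.11, 7.82, 7.03 and 7.38 in mdx, and 6.08, 6.46, 6.62 and 6.51 in treated mice. The 3 groups did not overlap, with mdx highest and treated lowest. The mdx mice were higher than C57 by 0.87 ± 0.22 (SE), with an adjusted p of 0.0204, and the treated mice fell by 1.17 ± 0.20 from mdx, with an adjusted p of 0.00958. The first of these calls was lost without any 1 of the 3 C57 mice or without M2, with differences of 0.70 to 1.06 over all mice left out and adjusted p up to 0.069. With the methods' t-test neither was called (adjusted p = 0.15 and 0.101). The probes are listed as mixed.

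Treated mice were lower than mdx for 2 further minus-strand tRNAs. For tRNA-Cys, which carries cysteine, the log2 signal was 7.58, 7.74 and 7.58 in C57, 8.44, 7.76, 7.90 and 7.43 in mdx, and 6.13, 7.24, 6.77 and 6.69 in treated mice. All treated mice were below all others, by 1.18 ± 0.23 (SE) against mdx (adjusted p = 0.0152) and 0.93 ± 0.25 against C57 (adjusted p = 0.0199). The second difference was no longer called without C2, with an adjusted p of 0.0707, or without C3, with 0.0572. With the methods' t-test neither was called (adjusted p = 0.12 and 0.0991). For tRNA-Ala, which carries alanine, the log2 signal was 11.62, 11.75 and 11.66 in C57, 11.80, 11.36, 11.55 and 11.49 in mdx, and 11, 11.26, 11.21 and 11.28 in treated mice. Here too the treated mice were lowest, and tRNA-Ala fell by 0.36 ± 0.11 from mdx, with an adjusted p of 0.0479, and by 0.49 ± 0.11 from C57, with an adjusted p of 0.0109. The call against mdx lies close to the threshold and was lost without any 1 mouse other than M2 or T2, with adjusted p up to 0.123.

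The plus-strand messenger and ribosomal RNAs differed by little between the groups. None of these 12 probe sets was called in any comparison, where limma called 12.0%, 11.1% and 24.6% of all tested probe sets. At an unadjusted p under 0.05 limma gave 1, 3 and 0 of the 12 in the 3 comparisons. At the same level the methods' t-test gave 3, 6 and 4. The methods' t-test called 0 after adjustment, and limma with a trended and robust prior called 1, 3 and 0. Between mdx and C57 the differences ranged from -0.21 to 0.10 on the log2 scale, between treated and mdx from -0.20 to 0.17, and between treated and C57 from -0.18 to 0.02. The largest of the first was the probe set that spans COX3, tRNA-Gly and ND3, which was -0.21 with a 95% interval of -0.39 to -0.03 and an adjusted p of 0.137. It includes the stretch of tRNA-Gly, whose own probe set differed by -1.47, and the part of that stretch was not tested. The probe sets of ND3 alone and of ATP8, ATP6 and COX3 differed by -0.05 and 0.02. ND2, a complex I subunit, had log2 signals of 13.12 to 13.22 (C57), 13.24 to 13.30 (mdx) and 13.00 to 13.17 (treated). Its mdx mice were above all others, but the differences of 0.10 and -0.20 had adjusted p of 0.534 and 0.0997. For the 16S rRNA, the mdx mice (12.83 to 12.96) lay below all C57 (13.00 to 13.08) and all treated mice (13.02 to 13.13). Its treated minus mdx difference was 0.17, with an adjusted p of 0.14, or 0.0316 with a trended and robust prior. COX1, the catalytic subunit of cytochrome c oxidase, differed by 0.01 between mdx and C57, with an interval of -0.17 to 0.18. CYTB, the cytochrome b subunit of complex III, differed by 0.07, with an interval of -0.10 to 0.23. The 12S rRNA of the small mitochondrial ribosomal subunit differed by -0.01, with an interval of -0.19 to 0.17, and the 16S rRNA of the large subunit by -0.15, with an interval of -0.32 to 0.03. These probe sets lay among the brightest 0.141% to 1.07% of the table, with mean log2 signals of 11.72 to 13.20, and the brightest probe set of an array was between 13.81 and 13.91 in C57, 13.63 and 13.66 in mdx and 13.82 and 13.86 in treated mice, so that the range left above them was narrow. Whether this limited their differences was not tested.

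Between mdx and C57, a pair of plus-strand tRNAs had the largest falls among the members. tRNA-Met, the methionine tRNA that serves both initiation and elongation of mitochondrial translation, lies at 3845 to 3913 and has probes listed as unique. Its log2 signal was 11.72, 12.10 and 11.85 in C57, 8.20, 7.61, 7.96 and 8.11 in mdx, and 10.50, 11.03, 10.77 and 10.99 in treated mice. The 3 groups did not overlap, with the treated mice between the other groups and closer to C57. In mdx the signal fell by 3.92 ± 0.17 (SE) from C57, a 15.1-fold difference with an adjusted p of 1.2e-07. The treated mice were higher than mdx by 2.85 ± 0.15, with an adjusted p of 1.4e-06, and lower than C57, with a difference of -1.07 ± 0.17 and an adjusted p of 0.0013. Its neighbours were not called between mdx and C57, where tRNA-Gln on the minus strand differed by -0.04 (95% interval -0.29 to 0.22) and ND2 by 0.10 (interval -0.08 to 0.27).

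tRNA-Gly, the glycine tRNA between COX3 and ND3 at 9391 to 9458, had the same order. Its log2 signal was 10.63, 10.69 and 10.61 in C57, 9.33, 9.04, 9.19 and 9.13 in mdx, and 10.18, 10.29, 10.08 and 10.26 in treated mice, again without overlap. The difference was -1.47 ± 0.10 (SE) between mdx and C57, 2.77-fold, with an adjusted p of 3.4e-06, then 1.03 ± 0.09 between treated and mdx (adjusted p = 0.00017) and -0.44 ± 0.10 between treated and C57 (adjusted p = 0.00725). ND3, which begins at its end, differed by -0.05 between mdx and C57, with an interval of -0.23 to 0.14. The tRNA-Gly probes are listed as mixed.

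tRNA-Val, the valine tRNA between the 2 rRNAs, was the third plus-strand tRNA called between mdx and C57. The log2 signal was 11.27, 11.49 and 11.36 in C57, 10.86, 10.41, 10.61 and 10.58 in mdx, and 10.72, 11.04, 10.84 and 10.78 in treated mice. Every mdx and every treated mouse was below every C57 mouse, while mdx and treated overlapped. The difference was -0.76 ± 0.12 (SE) in mdx against C57 (adjusted p = 0.00186), 0.23 ± 0.11 in treated against mdx (adjusted p = 0.178) and -0.53 ± 0.12 in treated against C57 (adjusted p = 0.00935).

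**Figure D2:**
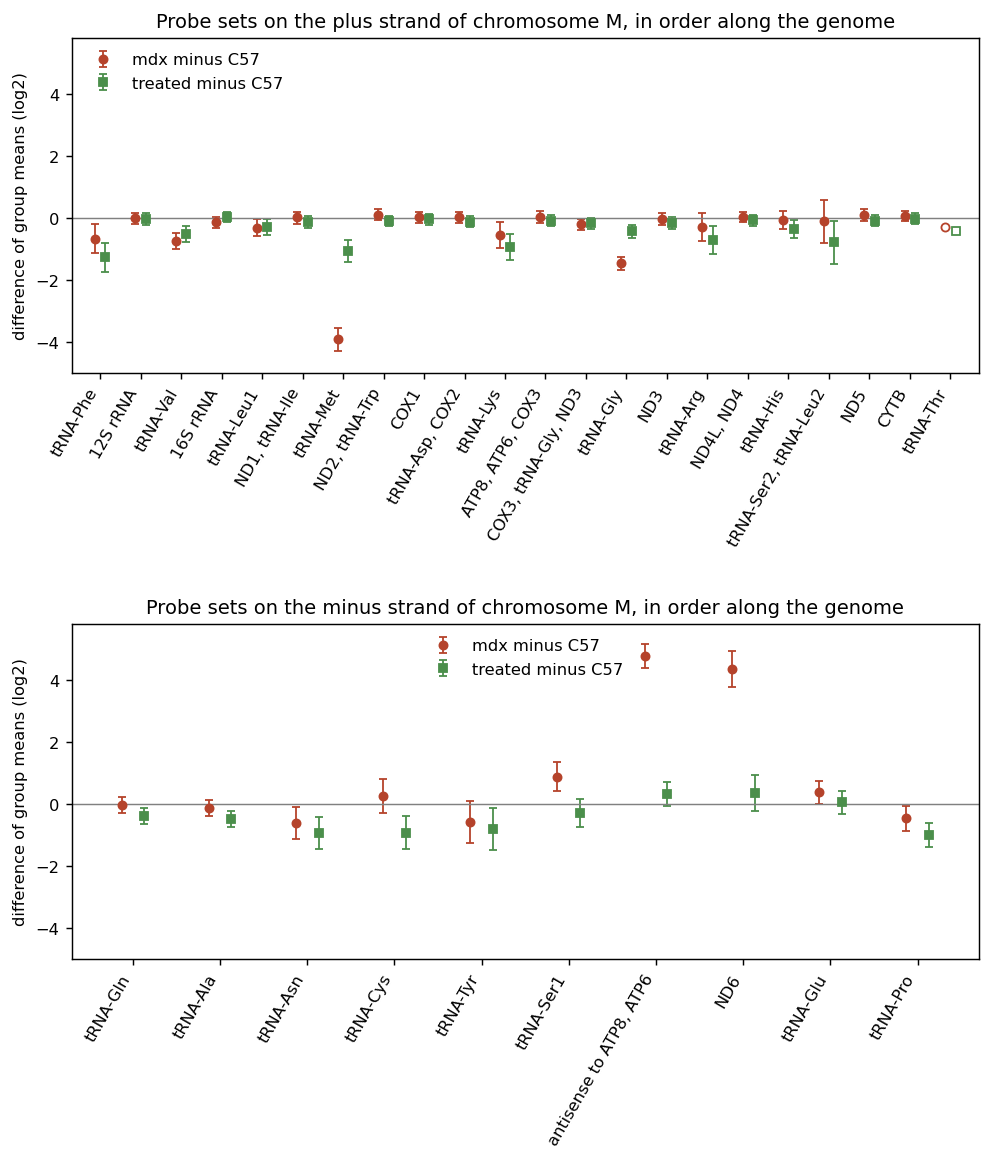
Difference of group means on the log2 scale, mdx minus C57 (circles) and treated minus C57 (squares), for the 22 plus-strand and 10 minus-strand probe sets in order along the mitochondrial genome. Bars are 95% confidence intervals from limma, and open symbols are tRNA-Thr, which was not tested. ND6 and the antisense probe set stand out upward and tRNA-Met and tRNA-Gly downward in mdx, and most tRNAs lie below 0 in treated mice.

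By strand, 3 of 21 tested plus-strand probe sets were called between mdx and C57, all lower in mdx, and 3 of 10 minus-strand probe sets, all higher. The 6 together are 3 higher and 3 lower of 31, against 7.06% and 4.96% of all tested probe sets. Between treated and mdx, the 2 called on the plus strand were higher in treated mice and the 5 called on the minus strand lower, against 7.26% and 3.88%. The direction thus followed the strand among these called members, but not among all members and not in every fit. Without M1, the minus-strand tRNA-Asn and tRNA-Pro were also called lower in mdx than in C57 (adjusted p = 0.0344 and 0.0248), and with a trended and robust prior the plus-strand ND2 and ND5 were called lower in treated than in mdx mice (adjusted p = 0.0198 and 0.0441). Over all 22 plus-strand probe sets the median difference was -0.09 for mdx minus C57 and -0.11 for treated minus mdx, and over all 10 minus-strand probe sets 0.11 and -0.46, beside -0.01 and 0.02 over all tested probe sets. In the treated mean, all 10 minus-strand and 16 of the 22 plus-strand probe sets were lower than in the mdx mean, among the latter 9 of the 10 coding ones. In this comparison 24 of the 31 tested members were not called, and the plus-strand coding differences ranged from -0.20 to 0.03.

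Against C57, the treated mice were lower for tRNAs of both strands. Of the 31 tested members 11 were called, all lower and all tRNAs, against 8.96% called lower of all tested probe sets. They were 6 of the 9 tested plus-strand and 5 of the 8 minus-strand tRNA probe sets, and none of the coding or rRNA probe sets was among them. The median over the 18 tRNA probe sets was -0.62, with a range of -1.28 to 0.05, and over the 12 plus-strand coding and rRNA probe sets -0.09. Every treated mouse was below every C57 mouse for 14 of the 17 tested tRNA probe sets, as for 14.1% of all tested probe sets.

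The lowest of these was tRNA-Phe, the phenylalanine tRNA at the start of the plus-strand transcript. Its log2 signal was 8.49, 8.39 and 8.38 in C57, 8.23, 7.52, 7.76 and 7.46 in mdx, and 6.72, 6.87, 7.41 and 7.55 in treated mice. The treated mice were below C57 by 1.28 ± 0.22 (SE), 2.43-fold, with an adjusted p of 0.00218, and mdx minus C57 was -0.68, with an adjusted p of 0.0648. tRNA-Lys, which carries lysine and precedes ATP8, was at 9.92, 10.18 and 10.08 in C57, 9.88, 9.73, 9.29 and 9.05 in mdx, and 9.46, 9.01, 9.07 and 8.90 in treated mice. Its treated mice fell by 0.95 ± 0.19 from C57, with an adjusted p of 0.00532. tRNA-Arg, which carries arginine and precedes ND4L, was at 10.11, 10.34 and 10.14 in C57, 10.51, 9.70, 9.79 and 9.57 in mdx, and 9.08, 9.73, 9.49 and 9.63 in treated mice. The mdx mice spanned both other groups, and the treated mice fell by 0.71 ± 0.21 from C57, with an adjusted p of 0.0297 that rose to between 0.0518 and 0.102 without any 1 of C1, C2, C3, T1 or T3.

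On the minus strand, tRNA-Pro, the proline tRNA next to the control region, was at 6.61, 7.03 and 7.01 in C57, 6.88, 6.41, 6.23 and 6.15 in mdx, and 5.59, 5.91, 6.05 and 5.93 in treated mice. The treated mice were lowest, by 1.01 ± 0.18 (SE) against C57, with an adjusted p of 0.00267. tRNA-Asn, which carries asparagine, was at 7.58, 8.07 and 7.87 in C57, 7.82, 7.12, 7.09 and 6.90 in mdx, and 6.33, 7.21, 7.05 and 7.04 in treated mice. It fell by 0.93 ± 0.24 in treated mice from C57, with an adjusted p of 0.0164 that was 0.0705 without C2 and 0.057 without C3. tRNA-Gln, which carries glutamine, was at 11.55, 11.72 and 11.79 in C57, 11.85, 11.51, 11.61 and 11.63 in mdx, and 11.07, 11.47, 11.28 and 11.34 in treated mice. Treated mice were lower than C57 by 0.40 ± 0.12, with an adjusted p of 0.0305 that lay between 0.0533 and 0.116 without any 1 of C2, C3, T1, T3 or T4.

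The remaining tested tRNA probe sets were not called in any comparison. Treated minus C57 was -0.30 for tRNA-Leu1, -0.35 for tRNA-His, -0.79 for the probe set of tRNA-Ser2 and tRNA-Leu2, and -0.80 for tRNA-Tyr, with adjusted p of 0.0984, 0.076, 0.0871 and 0.0794. For tRNA-Glu it was 0.05, with an adjusted p of 0.855. The probe set of tRNA-Ser2 and tRNA-Leu2 lay near the signal minimum, with log2 signals of 3.78 to 5.57 over all mice, and all treated mice were below it. The RNA of all mice was column-purified, a step that retains short RNAs poorly, and the probe sets do not tell a free tRNA from the same stretch inside a longer transcript.

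**Figure D3:**
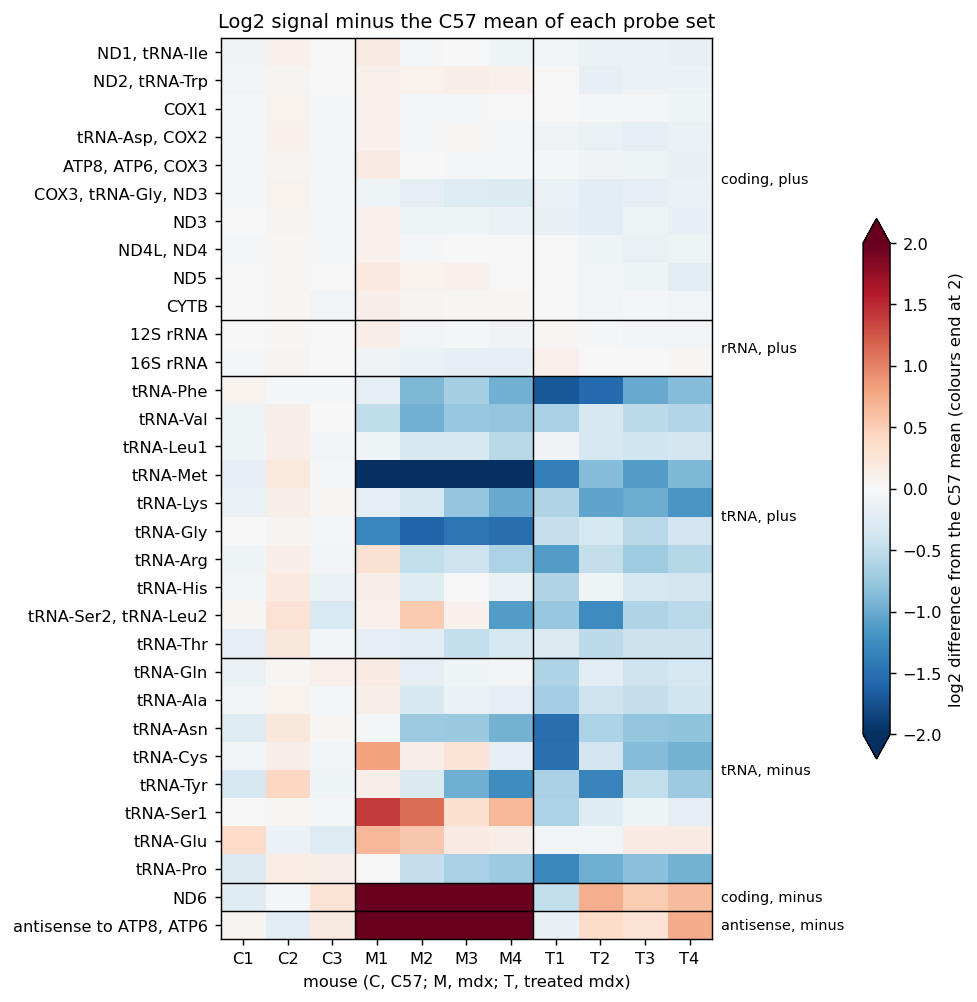
Log2 signal of each of the 32 probe sets in each mouse (C, C57; M, mdx; T, treated mdx) minus the mean of the 3 C57 mice for that probe set, grouped by kind of RNA and strand, with colours ending at a difference of 2. The coding and rRNA blocks are pale throughout, ND6 and the antisense probe set are strongly positive in the 4 mdx mice, tRNA-Met and tRNA-Gly are negative there, and the tRNA blocks are mostly negative in the 4 treated mice.

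The share of the mdx difference that was removed in treated mice was measured as restoration, the fall or rise from the mdx mean in percent of the distance from the mdx to the C57 mean. It was 112, 83.2, 88.3 and 85.3% for ND6 in T1 to T4, and 103, 92.2, 93.9 and 84.5% for the antisense probe set. For both, the C57 mean that ends this scale lay below the signal minimum and the treated mean close to it, so that these percentages reach into background signal. For tRNA-Met it was 64.5, 78.1, 71.4 and 77.0%, and for tRNA-Gly 68.5, 76.0, 61.7 and 73.9%. All 4 treated mice thus stood far from mdx for these 4 probe sets, T2 included. For tRNA-Val the restoration was 30.3 ± 18.3% (SD, n = 4), but its treated minus mdx difference was not called by limma (adjusted p = 0.178). tRNA-Ser1 passed beyond the C57 mean in all treated mice, at 111 to 173%, but its treated minus C57 difference was not called. Over all 1742 probe sets called between mdx and C57, the median restoration was 32.9, 7.31, 20.8 and 23.4% in T1 to T4. These percentages use the same mdx mice for both distances and are given as a description.

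Mice within a group differed along the same members. M1 was the highest of the mdx mice for 17 of the 18 tRNA probe sets and for 11 of the 12 plus-strand coding and rRNA probe sets, and C2 was the highest of the C57 mice for 15 and 12 of them. In the treated group T1 was the lowest for 12 of the 18 tRNA probe sets and the highest for 11 of the 12 coding and rRNA probe sets. Members of 1 mouse share an array and are not independent. Without M1, 10 members in place of 6 were called between mdx and C57, of which 3 were higher and 7 lower in mdx. The 4 added were tRNA-Phe, tRNA-Asn, tRNA-Lys and tRNA-Pro, with adjusted p of 0.0227, 0.0344, 0.0353 and 0.0248.

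Over the 11 mice, the log2 signal of ND6 followed that of the antisense probe set with a Pearson's r of 0.994, that of tRNA-Ser1 with 0.866, and those of tRNA-Met and tRNA-Gly with -0.943 and -0.944. For the 16S rRNA r was -0.875 and for the 12S rRNA 0.108. The points share their groups, so that r mostly reports the difference between mdx and the other mice. Outside chromosome M, the 5 probe sets with a symbol that were most like ND6 by r were 2 of Gm13306 with identical values (0.964), Ifi30, a lysosomal thiol reductase (0.959), Capns1, the small subunit of calpains (0.958), and Ctsb, the lysosomal protease cathepsin B (0.957). Their differences between mdx and C57 were far smaller than that of ND6, at 0.41, 0.80, 0.24 and 0.33 on the log2 scale. That of Capns1 was not called by limma (adjusted p = 0.0651), and the others were called.

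Markers of some cell types in the muscle also differed between the groups. For comparison, the shares of all tested probe sets called by limma are given first. For mdx minus C57 they were 7.06% higher and 4.96% lower. For treated minus mdx they were 7.26% and 3.88%, and for treated minus C57 15.6% and 8.96%, in the same order. None of the 7 skeletal muscle fibre markers examined, among them Ckm and Acta1, was called by limma in any comparison, with 0 at an unadjusted p under 0.05. The methods' t-test called 0 after adjustment. Its unadjusted p was under 0.05 for 1 of the 7 between treated and mdx and for 1 between treated and C57. The summed signal of the 7 was 45500 to 48500 (C57), 46600 to 47800 (mdx) and 44700 to 49200 (treated). All 6 macrophage markers were higher in mdx than in C57, with a summed signal of 645 to 811 (C57), 1870 to 3230 (mdx) and 1070 to 2030 (treated). Of the 6, 3 were called lower in treated than in mdx mice, and 4 were called higher in treated mice than in C57. All 4 markers of regenerating fibres were higher in mdx, with sums of 121 to 131 (C57), 409 to 961 (mdx) and 175 to 647 (treated). None of these 4 was called between treated and mdx, and 2 were called higher in treated mice than in C57. All 4 adipocyte markers were lower in treated than in mdx mice, with sums of 445 to 716 (C57), 318 to 992 (mdx) and 137 to 428 (treated). Among them, 3 were also called lower in treated mice than in C57. Of 4 fibroblast markers 1 was higher in mdx and 3 in treated mice than in C57, with sums of 3350 to 4620, 4870 to 5920 and 4850 to 7560 in C57, mdx and treated mice, and none of 3 red blood cell markers was called or had an unadjusted p under 0.05. The part of these cells in the mitochondrial signals was not tested.

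The nuclear genes that copy and transcribe the mitochondrial genome, or process and degrade its RNA, were mostly not called. Of 41 listed genes 37 were tested. Between mdx and C57, 3 were called and all were lower in mdx, against 4.96% of all tested probe sets, and the median over the 37 was -0.14. Polrmt, the mitochondrial RNA polymerase, fell by 0.40 ± 0.09 (SE), from log2 signals of 8.18 to 8.37 in C57 to 7.76 to 7.97 in mdx, with an adjusted p of 0.0165. Supv3l1, the helicase that degrades mitochondrial RNA together with Pnpt1, fell by 0.51 ± 0.12, from 7.37 to 7.67 in C57 to 6.90 to 7.25 in mdx, with an adjusted p of 0.015. Tbrg4, also known as FASTKD4, which stabilises certain mitochondrial messenger RNAs, fell by 0.49 ± 0.11, with an adjusted p of 0.0108. These 3 were picked by their call, and for each the mdx and C57 mice did not overlap. With the methods' t-test none of the 3 was called, with adjusted p of 0.067 for Polrmt, 0.0847 for Supv3l1 and 0.0833 for Tbrg4. The call of Polrmt was lost without C2, C3 or M2, with adjusted p up to 0.0747, and that of Supv3l1 without C1 or C2, with adjusted p up to 0.074.

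Between treated and mdx, 3 were higher in treated mice and none lower, against 7.26% called higher of all tested probe sets, and the median was 0.12. Lrpprc, which holds messenger RNAs stable with its partner Slirp, was higher by 0.60 ± 0.12 (SE), from 6.90 to 7.25 in mdx to 7.42 to 7.97 in treated mice, with an adjusted p of 0.0168. Ptcd2, a pentatricopeptide repeat protein of mitochondrial RNA processing, was higher by 0.70 ± 0.16 (adjusted p = 0.0228), and Fastkd2, which is needed for the 16S rRNA, by 0.60 ± 0.15 (adjusted p = 0.0291). The number called was 0 without M4, T3 or T4, 1 without M3 or T1, and 9 without T2. Polrmt differed by 0.04 here and Supv3l1 by 0.34, with adjusted p of 0.763 and 0.0677.

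Between treated and C57, 1 gene was higher, against 15.6% of all tested probe sets. It was Mtpap, the mitochondrial poly(A) polymerase (0.37, adjusted p = 0.0324). The 5 that were lower, against 8.96% of all tested probe sets, were Polrmt (-0.35, adjusted p = 0.0196), the ribosomal protein Mrpl12 (-0.42, 0.0105), the topoisomerase Top1mt (-0.51, 0.0427), Ptcd1 (-0.27, 0.0406) and Fastk (-0.28, 0.0413). The number called was 1 without C2, C3 or T3, 2 without T4, 3 without C1, M1 or M2, and 10 without T2.

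The other factors named for their roles were not called. Tfam, which packages the genome and is needed for its transcription, differed by -0.03 between mdx and C57 and 0.48 between treated and mdx (adjusted p = 0.955 and 0.0652). The transcription factor Tfb2m differed by -0.04 and 0.38 (adjusted p = 0.926 and 0.155), and the elongation factor Tefm by -0.30 and 0.53 (0.479 and 0.121). Pnpt1, the polynucleotide phosphorylase, differed by -0.06 and 0.33 (0.85 and 0.112), Grsf1, an RNA-binding protein of mitochondrial RNA granules that takes part in decay of minus-strand RNA, by -0.12 and 0.12 (0.472 and 0.374), and Slirp by -0.17 and -0.10 (0.67 and 0.738). The terminator Mterf1a was below the signal minimum in every group.

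**Figure D4:**
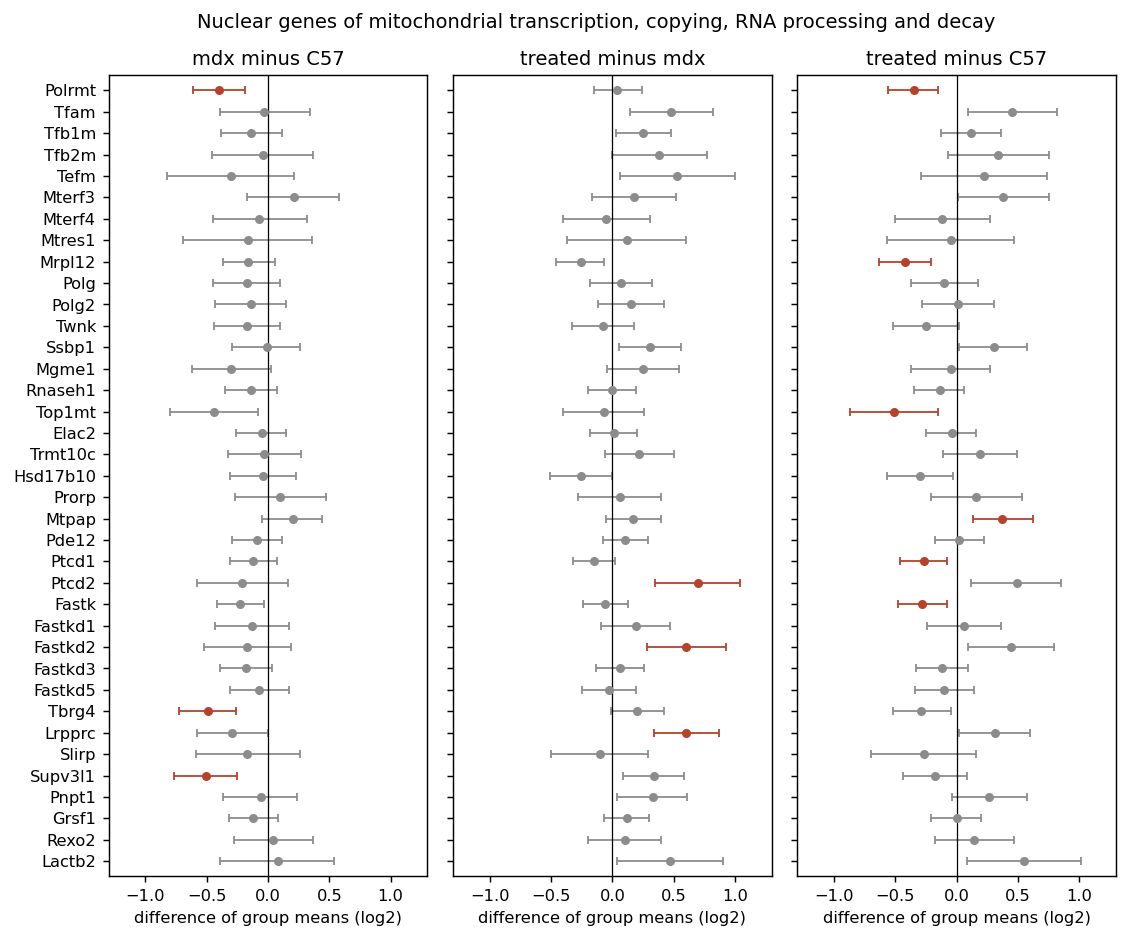
Difference of group means on the log2 scale with 95% confidence intervals from limma, for 37 nuclear genes of mitochondrial transcription, genome copying, RNA processing and decay in 3 comparisons. Red points were called at an adjusted p under 0.05 and grey points were not. Polrmt, Tbrg4 and Supv3l1 are lower in mdx than in C57, and no gene moves by more than 0.70.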

How the data were processed

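RNA from the TA of 11 mice was hybridised to Affymetrix Mouse Gene ST 1.1 arrays. The authors made the deposited linear intensities in Affymetrix Expression Console, per the labels and methods, with the RMA-sketch workflow: RMA correction of the background, quantile normalization by sketch, then median polish. The log2 of all 311850 values lies on a hundredth, to within 0.0001, so finer differences are not resolved. The number of arrays, 3 or 4 per group, limits the precision. The table names no genome build, so positions hold only within it. Names came from the GRCm38.p6 RefSeq gene list: all 37 mitochondrial genes lie inside a member, within 1 base.

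Probe sets with a mean intensity of at least 30 in at least 1 group, after the methods, were tested: 14494. In R 4.3.3, a linear model with 1 mean per group was fitted over the 11 mice to log2 intensities with limma 3.58.1 (lmFit, eBayes, two-sided), with Benjamini-Hochberg adjustment over all tested probe sets. Simulated data with known changes were used to test the fit. ND6, all members called in any comparison, and 10 nuclear genes together with those called in a list of 41 are named. FASTKD4, listed beside Tbrg4, is the same gene and was counted once. Members and lists were chosen with earlier results of these data known. Tables and plots were made in Python 3.11.15 (NumPy 2.4.6, pandas 2.3.3, matplotlib 3.10.9). Alternatives included the methods' t-test, other filters and normalizations, a replicate block and leaving out each mouse.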

Additional observations from a re-analysis of the deposited data

Results flagged for a closer look

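Of 64 groups of 4 mice examined over the members, 2 held a mouse whose gap to the nearest of the others was large against the range of the group, by Dixon's criterion, which flags about 1 in 20 groups by chance. For tRNA-Leu1 the treated mouse T1 had a log2 signal of 12.00, where the other treated mice lay between 11.67 and 11.72. For ND3 the mdx mouse M1 had a log2 signal of 12.50, where the other mdx mice lay between 12.29 and 12.32. Neither probe set was called in any comparison.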

How the results depend on the processing

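The differences of ND6, the antisense probe set, tRNA-Met and tRNA-Gly between mdx and C57 and between treated and mdx kept their direction and call under all alternatives run. With a mouse left out, mdx minus C57 was 4.22 to 4.49 for ND6, 4.65 to 4.86 for the antisense probe set, -4.00 to -3.80 for tRNA-Met and -1.52 to -1.43 for tRNA-Gly. Of 2201 values for single members and called nuclear genes under alternatives, 1998 kept direction and call, 142 lost a call, 28 gained one and 33 changed sign. None of the 14 differences with a sign change was called. Arrays with 3 or 4 mice a group limit the calls of small differences.

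The members called between mdx and C57 numbered 6, and 5 to 10 with a mouse left out (10 without M1). Between treated and mdx they numbered 7, 6 to 10 with a mouse left out, 4 with the methods' t-test and 12 with a trended and robust prior. Between treated and C57 they numbered 11, 7 to 12 with a mouse left out (7 without C2 or C3), and 7 with the methods' t-test, with the replicate block, and at an unadjusted p under 0.01 with 1.5-fold. The replicate block did not move the other 2 counts of members by more than 1. Mice of the same number did not pair, with correlations of their deviations of -0.297 to 0.153 over 10 pairs, of which 1 was over 0.1.

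Of the nuclear genes, 3 were called between mdx and C57, 1 to 4 with a mouse left out (1 without C2), and 0 with the methods' t-test or at an unadjusted p under 0.01 with 1.5-fold. Between treated and mdx 3 were called, 0 to 9 with a mouse left out, 0 with the methods' t-test and 1 with the replicate block. Between treated and C57 6 were called, 1 to 10 with a mouse left out, 2 with the methods' t-test, 3 when only these 2 groups were fitted, 1 with the replicate block and 0 at an unadjusted p under 0.01 with 1.5-fold. The cause of these changes was not tested.

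With arrays centred on their medians, mdx minus C57 changed sign to -0.035 for ND1, -0.035 for COX1, -0.032 for COX2, -0.018 for the probe set of ATP8, ATP6 and COX3 and -0.021 for ND4L and ND4, and treated minus C57 to -0.022 for the 16S rRNA. With the replicate block, mdx minus C57 became 0.010 for the 12S rRNA and 0.019 for tRNA-Ser2 and tRNA-Leu2. With a mouse left out, mdx minus C57 ranged from -0.050 to 0.017 for the 12S rRNA, -0.043 to 0.050 for ND1, -0.105 to 0.015 for tRNA-Gln, -0.023 to 0.040 for COX1, -0.020 to 0.048 for COX2, -0.023 to 0.048 for the probe set of ATP8, ATP6 and COX3, -0.007 to 0.038 for ND4L and ND4, -0.132 to 0.032 for tRNA-His and -0.320 to 0.230 for tRNA-Ser2 and tRNA-Leu2. Treated minus mdx ranged from -0.055 to 0.012 for the 12S rRNA, -0.058 to 0.102 for tRNA-Leu1 and -0.420 to 0.037 for tRNA-Tyr, and treated minus C57 from -0.082 to 0.242 for tRNA-Glu.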
